A study of Mus musculus with 9 samples.

Results

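Kruppel-like factors are transcription factors that bind GC-rich and CACCC-type sites in promoters through zinc fingers at the end of the protein. RNA of 7 genes of the family (Klf3, Klf4, Klf6, Klf7, Klf10, Klf12 and Klf13) was followed here in group 2 innate lymphoid cells (ILC2s), lymphocytes without antigen receptors that settle in tissues and secrete type 2 cytokines. The members were given by name and found by gene symbol, and all 7 had a row among the 23466 genes of the raw count table and enough reads to be tested. The 9 libraries fell into 3 groups of 3, all from 10-week-old wild type mice of strain C57/Bl6. The first group was ILC2s from brain meninges of mice killed 24 h (1 day) after a spinal cord contusion of 80 kdyn, the second ILC2s from brain meninges of uninjured mice, and the third ILC2s from lung of uninjured mice. The sort took viable CD45+ cells that lacked lineage markers and carried ST2 and Thy1, and 5 mice were pooled for each group. The labels do not say that the libraries of a group came from separate mice, so p-values may reflect technical spread alone. No group was labelled as sham-operated, so the contusion and the surgery around it cannot be told apart.

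Family members are commonly sorted by the partners they recruit. Klf4, Klf6 and Klf7 act mainly as activators, Klf3 and Klf12 recruit the corepressor CtBP, and Klf10 and Klf13 recruit the corepressor Sin3a. In lymphocytes the family is best known for restraining division and for setting where cells travel, and several members, Klf4, Klf6 and Klf10 among them, are also induced quickly when cells are stimulated.

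Library totals ran from 13407277 to 18253462 counts, and 13465 to 18452 genes had at least 1 count, the fewest in injured meninges 2, which also stood apart from the rest in its levels. Levels are in CPM, counts scaled to library size with the trimmed mean of M values. A gene with a count of 0 may still hold up to 3 counts, or 0.163 to 0.239 CPM depending on the library, counting error only. The genes of the sort markers were read in every library. Il1rl1, which encodes ST2, averaged 2379 ± 400 CPM in injured meninges, 2188 ± 337 CPM in uninjured meninges and 2147 ± 280 CPM in lung (SD of 3 libraries). Thy1, however, had 68.0 ± 21.6 CPM in injured meninges, 225 ± 56.3 CPM in uninjured meninges and 152 ± 14.0 CPM in lung, and was called lower in injured than in uninjured meninges (edgeR adjusted p = 0.0218); its part in the members' values was not tested. Genes at an edgeR adjusted p under 0.05 over all 15117 genes tested are called. Standard errors (SE) and 95% confidence intervals belong to the fitted log2 fold changes.

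Klf4 was lower in injured meninges than in lung by the test, and its levels in uninjured meninges also lay below those in lung without passing. Its protein, a factor also used to reprogram cells to pluripotency, restrains cell division in many cell types and is a well-known regulator of endothelium, epithelium and monocytes. Klf4 had 2.69, 4.14 and 1.44 CPM in injured meninges, 3.16, 0.839 and 13.6 CPM in uninjured meninges, and 45.0, 70.0 and 62.7 CPM in lung. All 6 meningeal libraries thus lay below all 3 lung libraries, and the highest of them was uninjured meninges 3. The raw counts behind these levels were 45, 52 and 23 in injured meninges, 58, 13 and 203 in uninjured meninges, and 732, 950 and 979 in lung. In bulk libraries fewer cells of a type and less RNA per cell cannot be told apart.

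Klf4 averaged 2.76 ± 1.35 CPM in injured meninges and 59.2 ± 12.9 CPM in lung (SD of 3 libraries). The log2 fold change of -4.42 ± 0.90 (SE) passed, with an adjusted p from edgeR of 0.0247 and a 95% confidence interval of -6.35 to -2.50. Klf4 was the 1 of 7 members called in that comparison, in which 1.05% of all genes were called. In this contrast injury and tissue differ together and cannot be told apart. Of the members, 2 (Klf3 and Klf4) had an unadjusted p under 0.05, against 13.3% of all genes. The Klf4 call was lost without injured meninges 1 (adjusted p = 0.0602) or 3 (0.101) and without lung 1 (0.0605), 2 (0.101) or 3 (0.0956), and it held without injured meninges 2 (0.029). Over 16 alternative settings the adjusted p ran from 1.33e-05 to 0.101 and the log2 fold change from -4.83 to -4.12.

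In uninjured meninges Klf4 averaged 5.88 ± 6.82 CPM, against 59.2 ± 12.9 CPM in lung (SD of 3 libraries), and the test was missed, at -3.33 ± 0.86 on the log2 scale (SE; adjusted p = 0.118 by edgeR, 95% confidence interval -5.15 to -1.51). None of the 7 members was called by edgeR in this comparison, in which 0.635% of all genes were called. Klf4 alone of the members had an unadjusted p under 0.05, against 7.98% of all genes, and DESeq2 called Klf4 (adjusted p = 0.00304). It was called in 4 of 16 alternatives, the others being no filter on low counts (adjusted p = 0.0108), without injured meninges 2 (0.0442) and without uninjured meninges 3 (0.0213), and the range over all was 0.00304 to 0.351. Without uninjured meninges 3, the meningeal library with the most Klf4, the log2 fold change was -4.88. Both comparisons against lung use the same lung libraries, so they are not independent of each other.

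Between injured and uninjured meninges, Klf4 did not pass (log2 fold change -1.09 ± 0.80, edgeR adjusted p = 0.75, 95% confidence interval -2.80 to 0.62). The direction rested on uninjured meninges 3, without which the log2 fold change was 0.45 (adjusted p = 0.977).

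**Figure D1:**
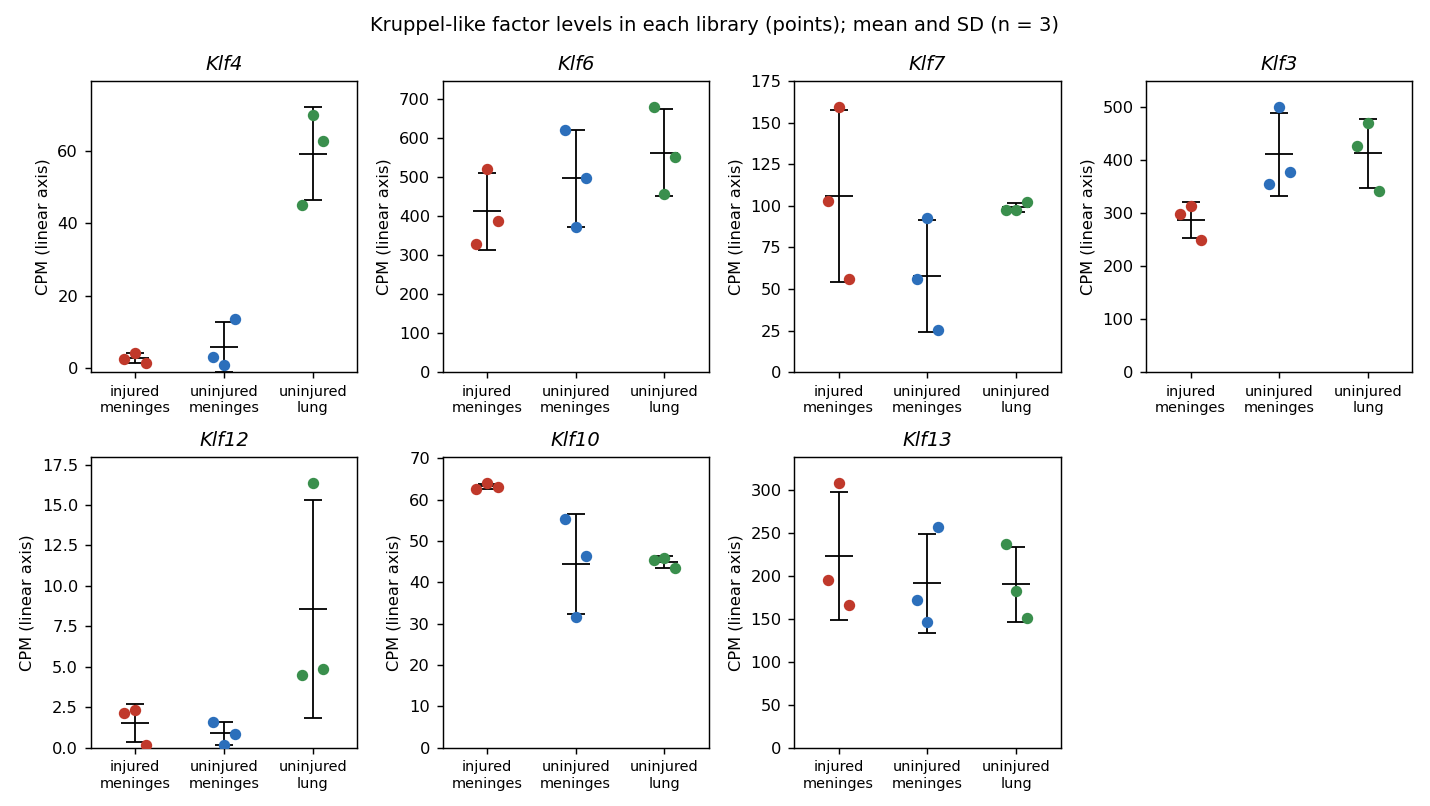
Levels of the 7 Kruppel-like factors in CPM on linear axes, 1 panel a gene, with injured meninges, uninjured meninges and lung from left to right; points are libraries, and bars give the mean and SD of 3. Klf4 lies between 0.839 and 13.6 CPM in the 6 meningeal libraries and between 45.0 and 70.0 CPM in lung, while the 3 groups of Klf6 and of Klf13 overlap.

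Several gene lists moved with Klf4 across the tissues, and their part in its difference was not tested. Of 24 immediate early genes, which cells induce quickly on stimulation and which tissue digestion can also induce, all were in the table, and their summed level was 942 to 1554 CPM in injured meninges, 481 to 2071 CPM in uninjured meninges and 4367 to 7706 CPM in lung. Within uninjured meninges the sum was highest in library 3, at 2071 CPM, and within lung it was lowest in library 1, at 4367 CPM. These were also the libraries with the most and the least Klf4 of their groups, whereas within injured meninges library 2 had the most Klf4 and the lowest sum, 942 CPM. Atf3 of that list was at 0 in all 6 meningeal libraries.

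The sums of endothelial, lung epithelial and fibroblast markers were also higher in lung on average, and their part was likewise not tested. The 10 endothelial markers summed to 70.9 to 156 CPM in injured meninges, 70.9 to 247 CPM in uninjured meninges and 240 to 678 CPM in lung, and none of them was at 0 throughout a group. Emcn and Esam did not follow the sum. Emcn averaged 13.5 ± 7.8, 10.1 ± 8.5 and 11.8 ± 8.2 CPM in injured meninges, uninjured meninges and lung. Esam averaged 7.13 ± 6.64 CPM in uninjured meninges and 5.69 ± 6.37 CPM in lung. The other endothelial markers had higher means in lung than in either meningeal group. The 9 lung epithelial markers summed to 10.5 to 27.7 CPM in injured meninges, 4.03 to 11.7 CPM in uninjured meninges and 685 to 2152 CPM in lung, with Krt8, Krt18 and Sftpc at 0 throughout injured and Krt18 and Sftpd throughout uninjured meninges. Scgb1a1 alone gave 1456, 613 and 661 CPM of the sums in lung 1, 2 and 3. Epcam did not follow the sum, with means of 10.5 ± 4.55, 7.20 ± 3.05 and 9.37 ± 8.47 CPM in injured meninges, uninjured meninges and lung. The endothelial and lung epithelial sums were lowest of the lung libraries in lung 2, at 240 and 685 CPM. The fibroblast sum given next was also lowest there, at 107 CPM. Klf4 was highest in lung 2, at 70.0 CPM, and a link between these levels over 3 libraries was not tested. Of 9 fibroblast markers, 8 were in the table and summed to 3.88 to 33.9 CPM in injured meninges, 4.65 to 82.0 CPM in uninjured meninges and 107 to 285 CPM in lung, with Dpt at 0 in both meningeal groups and Lum and Pdgfra at 0 in the injured one. Dcn and Lum did not follow the sum. They averaged 18.0 ± 15.8 and 1.78 ± 1.40 CPM in uninjured meninges, against 13.7 ± 8.9 and 1.65 ± 1.18 CPM in lung. Every other detected fibroblast marker had a higher mean in lung than in either meningeal group. The 10 myeloid markers summed to 77.8 to 177 CPM, 29.4 to 117 CPM and 35.7 to 500 CPM in injured meninges, uninjured meninges and lung. Their sums did not follow the order of the fibroblast sums: lung 2, with 35.7 CPM, lay below all injured libraries. Lyz2 alone gave 326 and 425 CPM of the sums in lung 1 and lung 3, and Cd14 was at 0 in uninjured meninges.

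Promoters are shown for 4 of the 5 members whose libraries separated in a comparison (Klf4, Klf3, Klf7 and Klf12, with no entry for Klf10), because the family binds GC-rich and CACCC-type sites, its own promoters included. The sequences come from RefSeq on GRCm38.p6, 250 bases before to 50 bases after the gene start, 5′ to 3′ on the gene's strand. Capitals mark CACCC and GGGCGG (the GC box) on either strand, and neighbouring matches may share bases.
Klf4, chr4:55532426-55532725, minus strand: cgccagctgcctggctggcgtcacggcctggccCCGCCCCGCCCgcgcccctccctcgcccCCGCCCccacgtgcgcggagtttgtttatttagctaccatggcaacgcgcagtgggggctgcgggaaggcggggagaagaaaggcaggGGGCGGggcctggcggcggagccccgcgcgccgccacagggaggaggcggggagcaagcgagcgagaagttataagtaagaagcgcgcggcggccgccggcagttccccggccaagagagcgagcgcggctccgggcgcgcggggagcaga
Klf3, chr5:64803271-64803570, plus strand: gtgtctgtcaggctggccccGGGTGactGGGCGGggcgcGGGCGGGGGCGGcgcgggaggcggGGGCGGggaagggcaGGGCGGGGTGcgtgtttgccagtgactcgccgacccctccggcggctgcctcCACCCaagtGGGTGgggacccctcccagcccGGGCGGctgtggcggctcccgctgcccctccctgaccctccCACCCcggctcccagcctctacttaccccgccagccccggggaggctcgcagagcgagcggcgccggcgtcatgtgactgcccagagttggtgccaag
Klf7, chr1:64121340-64121639, minus strand: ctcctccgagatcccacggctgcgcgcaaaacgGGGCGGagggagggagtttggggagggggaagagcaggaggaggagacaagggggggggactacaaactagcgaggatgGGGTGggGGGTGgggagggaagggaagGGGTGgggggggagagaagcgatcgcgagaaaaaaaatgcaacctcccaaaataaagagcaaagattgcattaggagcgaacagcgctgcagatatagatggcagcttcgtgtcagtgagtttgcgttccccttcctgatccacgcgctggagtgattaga
Klf12, chr14:100149747-100150046, minus strand: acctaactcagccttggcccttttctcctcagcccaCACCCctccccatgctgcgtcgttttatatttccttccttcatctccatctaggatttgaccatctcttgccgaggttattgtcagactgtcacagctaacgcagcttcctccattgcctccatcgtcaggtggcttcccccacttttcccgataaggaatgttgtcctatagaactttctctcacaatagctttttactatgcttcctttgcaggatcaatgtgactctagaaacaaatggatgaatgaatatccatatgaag
The table held promoters of 6 members, all but Klf10. The Klf4 window held 4 GC boxes and 0 CACCC matches and was 74.3% G or C. The Klf3 window held 6 GC boxes and 5 CACCC matches, 1 pair of them overlapping, at 76.7% G or C. The Klf12 window, at 45.7% G or C, held 0 GC boxes and 1 CACCC match. Klf6 had 1 GC box and 0 CACCC matches, Klf7 had 1 and 3, and Klf13 had 3 and 1. Of all 32851 promoters of that length, 35.7% held a GC box and 57.5% a CACCC match, 5.49% held 4 or more GC boxes, and the median G and C content was 52.7%. The cyclic AMP response element TGACGTCA and the AP-1 element TGANTCA, held by 1.79% and 7.81% of all promoters, had 0 matches in the 6 windows. These matches describe letters in the windows and are not sites of binding.

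The other activators, Klf6 and Klf7, did not pass in any comparison. Klf6, a broadly expressed activator that is induced after tissue injury, had 328, 522 and 388 CPM in injured meninges, 621, 373 and 497 CPM in uninjured meninges, and 679, 458 and 552 CPM in lung. The 3 groups overlapped. The log2 fold change was -0.27 ± 0.24 for injured over uninjured meninges (edgeR adjusted p = 0.817, 95% confidence interval -0.78 to 0.24), -0.18 ± 0.24 for uninjured meninges over lung (0.982, -0.69 to 0.33) and -0.45 ± 0.24 for injured meninges over lung (0.452, -0.96 to 0.06).

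Klf7, known for its part in axon growth and fat cell differentiation, had 103, 159 and 55.8 CPM in injured meninges, 56.0, 92.7 and 25.4 CPM in uninjured meninges, and 97.6, 97.6 and 102 CPM in lung. The lung libraries lay close together and above all uninjured meningeal ones, while injured meninges spread over a wide range. Neither the comparison of injured with uninjured meninges (log2 fold change 0.87 ± 0.44, edgeR adjusted p = 0.59, 95% confidence interval -0.07 to 1.81) nor that of uninjured meninges with lung (-0.77 ± 0.44, 0.763, -1.71 to 0.16) passed. With each library left out, injured over uninjured meninges ran from 0.45 (without injured meninges 2) to 1.38 (without uninjured meninges 2), and uninjured meninges over lung from -1.28 (without uninjured meninges 2) to -0.41 (without uninjured meninges 3). Injured meninges over lung gave 0.10 ± 0.44 (adjusted p = 0.963), a value whose sign changed without injured meninges 2 (-0.32) and with the replicate number as a block (-0.10).

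Of the CtBP-recruiting repressors, Klf3 separated the meningeal groups without passing the test. Klf3, which is needed for normal B cell development and represses other family members, had 299, 313 and 249 CPM in injured meninges, 356, 499 and 377 CPM in uninjured meninges, and 426, 470 and 341 CPM in lung. Every injured library lay below every library of the other 2 groups. Klf3 averaged 287 ± 33.7 CPM in injured and 410 ± 77.5 CPM in uninjured meninges (SD, n = 3 each). On the log2 scale this was -0.52 ± 0.21 (SE, unadjusted p = 0.0287 and adjusted p = 0.509 by edgeR, 95% confidence interval -0.97 to -0.06). Against lung at 413 ± 65.7 CPM, injured meninges gave -0.52 ± 0.21 (adjusted p = 0.293) and uninjured meninges gave -0.01 ± 0.21 (adjusted p = 1). For injured over uninjured meninges the log2 fold change stayed between -0.62 and -0.35 over 16 alternatives, none of which called it.

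Klf12, first described as a repressor of the gene of AP-2 alpha, was the scarcest member. It had 2.15, 2.31 and 0.188 CPM in injured meninges, 1.58, 0.194 and 0.873 CPM in uninjured meninges, and 4.49, 16.4 and 4.87 CPM in lung. All meningeal libraries lay below all lung libraries, and lung 2 stood above the other two. Injured meninges 3 and uninjured meninges 2 held 3 counts each, so these levels are at the detection limit. The log2 fold change was -3.27 ± 1.58 for uninjured meninges over lung (edgeR adjusted p = 0.639, 95% confidence interval -6.62 to 0.09), -2.46 ± 1.52 for injured meninges over lung (0.534, -5.70 to 0.78) and 0.80 ± 1.46 for injured over uninjured meninges (0.924, -2.31 to 3.91). None passed, and DESeq2 gave an adjusted p of 0.0789 for uninjured meninges over lung. Without lung 2 the log2 fold change was -2.42 for uninjured and -1.61 for injured meninges over lung, and for injured over uninjured meninges it ran from 0.33 without uninjured meninges 2 to 1.53 without uninjured meninges 1.

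Of the Sin3a-recruiting members, Klf10 had its highest levels in injured meninges. Klf10, also named TGF-beta-inducible early gene, is induced by TGF-beta and acts in regulatory T cells. It had 62.6, 64.0 and 63.0 CPM in injured meninges, 55.3, 31.6 and 46.4 CPM in uninjured meninges, and 45.5, 45.9 and 43.4 CPM in lung. The injured libraries lay close together and above all others. The log2 fold change was 0.51 ± 0.37 for injured over uninjured meninges (edgeR adjusted p = 0.742, 95% confidence interval -0.27 to 1.28) and 0.49 ± 0.37 for injured meninges over lung (0.635, -0.28 to 1.27), and neither passed. For uninjured meninges over lung it was -0.02 ± 0.37 (adjusted p = 1).

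Klf13, which in human T cells activates the chemokine gene CCL5, had 195, 308 and 167 CPM in injured meninges, 172, 146 and 257 CPM in uninjured meninges, and 237, 183 and 151 CPM in lung. The groups overlapped throughout. Its log2 fold change was 0.22 ± 0.29 for injured over uninjured meninges (edgeR adjusted p = 0.89, 95% confidence interval -0.40 to 0.85), 0.01 ± 0.29 for uninjured meninges over lung (1, -0.61 to 0.63) and 0.23 ± 0.29 for injured meninges over lung (0.823, -0.39 to 0.85). Ccl5 itself averaged 1.38 ± 1.45 CPM in injured meninges, 1.44 ± 0.48 CPM in uninjured meninges and 6.48 ± 1.43 CPM in lung. It missed the threshold (edgeR adjusted p of 0.998, 0.864 and 0.583 for injured over uninjured meninges, uninjured meninges over lung and injured meninges over lung).

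**Figure D2:**
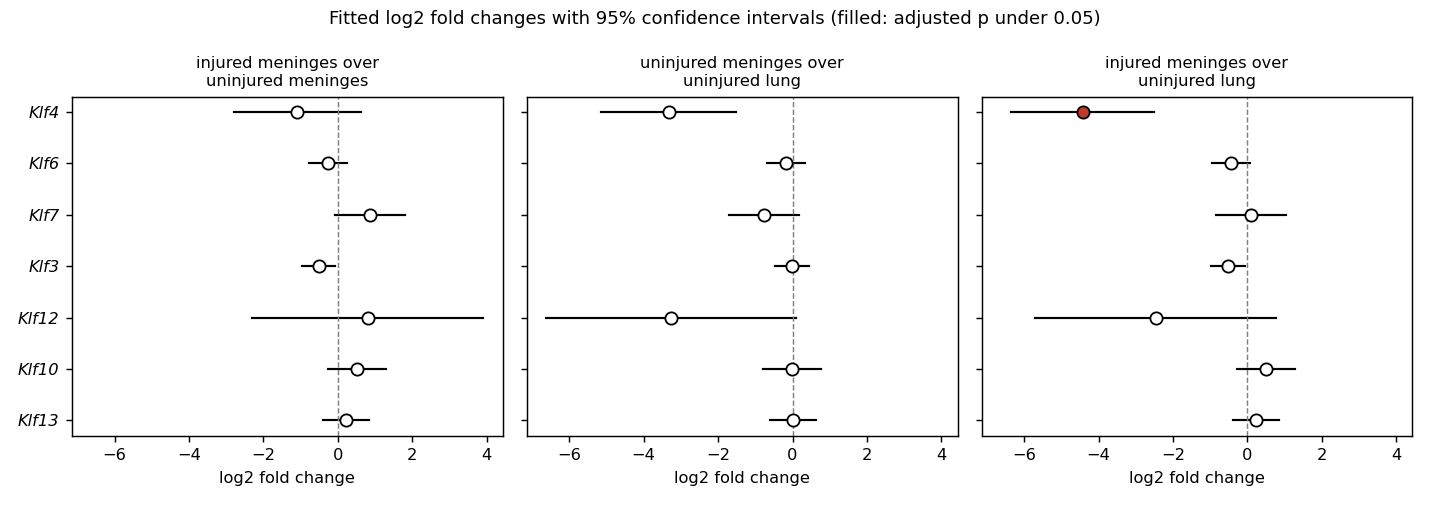
Log2 fold changes of the 7 Kruppel-like factors (points) with 95% confidence intervals (lines) in the 3 comparisons, the first-named group over the second; filled points passed at an adjusted p under 0.05. Klf4 in injured meninges over lung, at -4.42, is the filled point, and the interval of Klf12 is wide in every panel.

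Counted over the 7 members, the calls and the separated libraries were as follows. For injured over uninjured meninges edgeR called 0 of 7, against 0.192% of all genes, with 1 at an unadjusted p under 0.05 (Klf3), against 8.94% of all genes. DESeq2 called 0 of the 7, where it called 435 of 15186 genes. The median log2 fold change of the members was 0.22, against -0.01 for all genes. The libraries of the 2 groups did not overlap for 2 members, Klf3 and Klf10, while this held for 12.1% of all genes. For uninjured meninges over lung the median was -0.18, against 0.00 for all genes, and 3 members (Klf4, Klf7 and Klf12) did not overlap, all lower in meninges, while 18.2% of all genes did not overlap and 10.6% were lower without overlap. For injured meninges over lung the median was -0.45, against -0.01 for all genes, and 4 members did not overlap, with Klf3, Klf4 and Klf12 lower and Klf10 higher in injured meninges, while 17.8% of all genes did not overlap and 11.4% were lower without overlap.

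Levels of different members are set beside each other per kilobase of exon, with exon lengths from GENCODE M21, which may not be the annotation used for counting. Klf6 had the most RNA by this measure in all groups, with 94.0 ± 22.6 CPM per kilobase in injured meninges, 113 ± 28.2 in uninjured meninges and 128 ± 25.4 in lung (SD, n = 3 each). In lung Klf3 (36.7 ± 5.85), Klf13 (25.2 ± 5.76), Klf4 (19.4 ± 4.21), Klf7 (12.2 ± 0.34), Klf10 (10.7 ± 0.32) and Klf12 (1.23 ± 0.97) followed. Klf3 and Klf13, and Klf13 and Klf4, were neighbours whose means differed by less than the sum of their SDs. In meninges Klf4 stood below Klf7 and Klf10 and next to last. It had 0.90 ± 0.44 CPM per kilobase in injured meninges, with 0.22 ± 0.17 for Klf12, and 1.93 ± 2.24 in uninjured meninges, with 0.13 ± 0.10 for Klf12. In uninjured meninges Klf7 (7.14 ± 4.15), Klf4 and Klf12 were neighbours that differed by less than the sum of their SDs. No test was made between genes.

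For each member with a mean of at least 10 CPM, the genes with the most similar profile were found among 7198 genes by the root-mean-square difference of log2(CPM + 1) over the 9 libraries, each gene centred on its own mean. Nearest to Klf4 were Zfp36 (difference 0.62), which encodes an RNA-binding protein that promotes decay of cytokine messages, Coq10b (0.65) and Ifrd1 (0.73), while the spread of Klf4 about its own mean was 1.97. Zfp36 had 46.9, 53.5 and 72.1 CPM in injured meninges, 61.7, 76.3 and 217 CPM in uninjured meninges, and 537, 980 and 909 CPM in lung. As with Klf4, uninjured meninges 3 was the highest meningeal library, and lung 2 the highest of all. Zfp36 was chosen for its likeness to Klf4 over these same libraries, so a shared order is no separate finding. Coq10b averaged 7.91 ± 4.28 CPM in injured meninges, 22.6 ± 17.0 CPM in uninjured meninges and 113 ± 16.04 CPM in lung, and Ifrd1 averaged 44.2 ± 12.2, 39.1 ± 21.2 and 598 ± 295 CPM in those groups (SD, n = 3 each). Nearest to Klf3 were Fnbp1 (0.16), Sept2 (0.16) and Arhgdib (0.16), against a spread of 0.30 for Klf3. Nearest to Klf6 were Anxa6 (0.21), Pitpnc1 (0.21) and Anxa7 (0.21), with 0.33 for Klf6. Nearest to Klf7 were Atxn3 (0.36), Olfr1259 (0.36) and Usf2 (0.37), with 0.71 for Klf7. Nearest to Klf10 were Usp45 (0.16), Ptp4a2 (0.16) and Tmem30a (0.17), with 0.31 for Klf10. Nearest to Klf13 were Tex10 (0.18), Fbxo3 (0.18) and Ankmy2 (0.19), with 0.34 for Klf13. Genes that vary little are near to each other by this measure whatever their pattern.

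**Figure D3:**
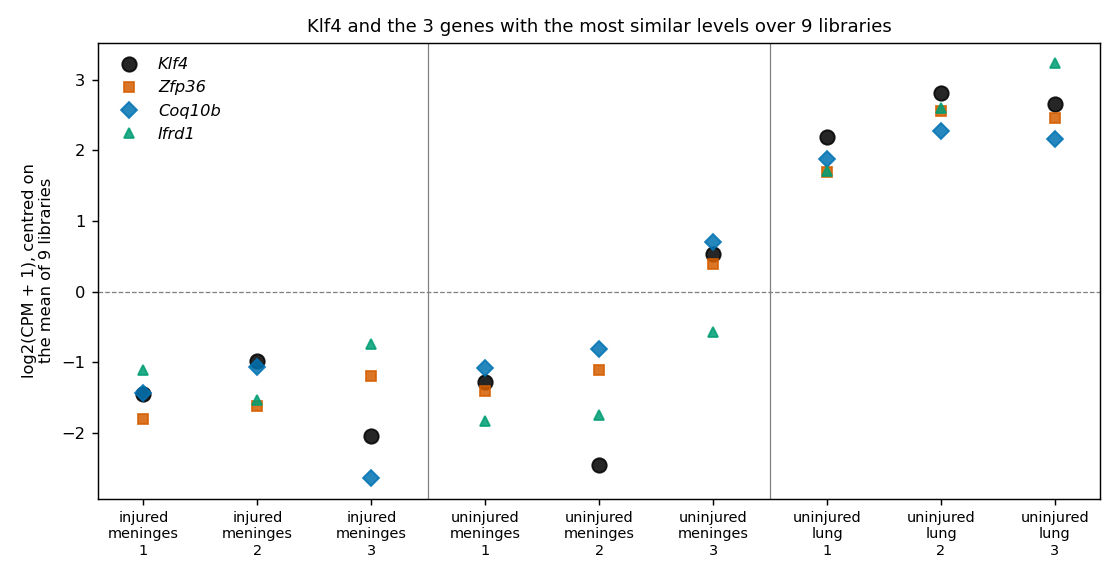
Level of Klf4 and of its 3 nearest genes as log2(CPM + 1) centred on each gene's mean over 9 libraries (vertical axis), with injured meninges, uninjured meninges and lung from left to right (horizontal axis); each point is a library. All 4 genes are highest in the 3 lung libraries, and uninjured meninges 3 is the highest meningeal library of each. The 3 nearest genes were chosen for their likeness to Klf4 over these same libraries.

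Zfp36 stood in the list of immediate early genes, several of which were lower in meninges. Of 24 tested, edgeR called 4 lower for uninjured meninges over lung (Nr4a3, Dusp1, Atf3 and Zfp36), where 0.595% of all genes were called lower, and the log2 fold changes of the list centred on a median of -1.80. For injured meninges over lung it called 7 lower, adding Junb, Dusp5 and Nr4a1, where 0.873% of all genes were called lower, with a median of -2.18. Nr4a3, a nuclear receptor, averaged 71.5 ± 17.4 CPM in injured meninges, 18.4 ± 9.76 CPM in uninjured meninges and 952 ± 393 CPM in lung. Atf3 counts in these medians by its rank alone. Dusp1, which removes phosphate from MAP kinases, had means of 17.2 ± 7.61 CPM in injured meninges, 27.8 ± 13.3 CPM in uninjured meninges and 305 ± 71.9 CPM in lung (SD over 3 libraries). Junb, an AP-1 subunit, averaged 55.8 ± 4.90 CPM in injured meninges and 292 ± 78.2 CPM in lung, which on the log2 scale is -2.39 ± 0.42 (edgeR adjusted p = 0.0109). DESeq2 called 9 lower in each of these comparisons, where it called 436 of 15186 and 779 of 15543 genes lower. Junb, Dusp5 and Nr4a1 were among the 9 in both. For injured over uninjured meninges none of the 24 was called by edgeR, 16 had a log2 fold change below 0 and 7 above, and the median was -0.70. An unadjusted edgeR p under 0.05 was reached by 3, against 8.94% of all genes. Of the 3, Nr4a3 and Fosl2 were higher, both called by DESeq2, and Zfp36 was lower (log2 fold change -1.04 ± 0.39, edgeR adjusted p = 0.478). Fosl2, an AP-1 subunit, averaged 540 ± 151 CPM in injured and 153 ± 133 CPM in uninjured meninges (edgeR adjusted p = 0.384).

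In the rest of the KLF and SP zinc finger family, 13 of 19 listed genes had a row in the table and 10 were tested, and edgeR called none in any comparison. At an unadjusted edgeR p under 0.05 there were 1 for injured over uninjured meninges, 2 for uninjured meninges over lung and 2 for injured meninges over lung. The shares of all genes at such a p were 8.94%, 7.98% and 13.3%. Klf9, a target of the glucocorticoid receptor, had 117, 144 and 133 CPM in injured meninges, 85.8, 69.4 and 78.2 CPM in uninjured meninges, and 140, 119 and 104 CPM in lung. Uninjured meninges lay below both other groups, with a log2 fold change of 0.75 ± 0.26 for injured over uninjured meninges (edgeR adjusted p = 0.45), which DESeq2 called, and -0.64 ± 0.26 for uninjured meninges over lung (0.495). Klf5, an activator best known in epithelium, averaged 16.5 ± 11.5 CPM in injured meninges, 20.5 ± 10.7 CPM in uninjured meninges and 59.3 ± 25.6 CPM in lung. Its log2 fold change was -1.84 ± 0.62 for injured meninges over lung (edgeR adjusted p = 0.192), called by DESeq2, and -1.53 ± 0.61 for uninjured meninges over lung (0.461). Sp4, a relative that binds GC boxes, averaged 171 ± 57.5 CPM in injured meninges, 115 ± 23.5 CPM in uninjured meninges and 89.5 ± 3.38 CPM in lung (edgeR adjusted p = 0.166 for injured meninges over lung). Klf2, a relative of Klf4 that controls lymphocyte egress and was picked after its values were seen, averaged 1.86 ± 1.81 CPM in injured meninges, 3.34 ± 2.93 CPM in uninjured meninges and 10.9 ± 4.41 CPM in lung, and it did not pass (adjusted p = 0.526 by edgeR for injured meninges over lung).

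All 18 listed cofactors of KLF proteins were tested, and edgeR called none in any comparison, with 1 at an unadjusted p under 0.05 in each. Of all genes, 8.94%, 7.98% and 13.3% were at such a p in injured over uninjured meninges, uninjured meninges over lung and injured meninges over lung. Hdac4, a histone deacetylase, averaged 198 ± 60.4 CPM in injured meninges, 78.4 ± 3.73 CPM in uninjured meninges and 107 ± 19.6 CPM in lung. For injured over uninjured meninges its log2 fold change was 1.34 ± 0.28 (edgeR adjusted p = 0.085). DESeq2 called Hdac4 higher in injured meninges in both comparisons that use that group. Crebbp, a coactivator and acetyltransferase, averaged 689 ± 96.8 CPM in injured and 541 ± 33.0 CPM in uninjured meninges (adjusted p = 0.59), and Hdac2 averaged 116 ± 14.0 CPM in injured meninges and 77.0 ± 2.98 CPM in lung (edgeR adjusted p = 0.38). Btrc, a ubiquitin ligase subunit, and Ctbp2, the corepressor of Klf3 and Klf12, had 12.6 ± 3.32 and 1.52 ± 0.80 CPM in uninjured meninges, against 33.1 ± 13.8 and 9.52 ± 5.12 CPM in lung (edgeR adjusted p = 0.596 and 0.669).

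Of 17 genes reported in other cells as KLF targets, 16 had a row and 12 were tested, and edgeR again called none. An unadjusted edgeR p under 0.05 was found for 0, 3 and 5 of the 12, against 8.94%, 7.98% and 13.3% of all genes. These values are for injured over uninjured meninges, uninjured meninges over lung and injured meninges over lung, in that order. DESeq2, which gave an adjusted p for 15, 15 and 16 of the list, called 0, 2 and 2. Of all genes it called 435 of 15186, 535 of 15186 and 1091 of 15543. The median log2 fold change was -0.22, -0.54 and -0.81 in those comparisons, against -0.005, 0.002 and -0.01 for all genes. Cdkn1a, which encodes the cell cycle inhibitor p21 and is induced by Klf4 in several cell types, averaged 16.9 ± 15.3 CPM in injured meninges, 6.47 ± 4.26 CPM in uninjured meninges and 88.15 ± 27.97 CPM in lung, a log2 fold change of -3.77 ± 0.91 for uninjured meninges over lung (edgeR adjusted p = 0.0894). S1pr1, the egress receptor that Klf2 activates in T cells, averaged 4.31 ± 3.21 CPM in injured meninges, 3.36 ± 1.79 CPM in uninjured meninges and 28.5 ± 13.9 CPM in lung, a log2 fold change of -3.08 ± 0.91 for uninjured meninges over lung (edgeR adjusted p = 0.208). For both genes every meningeal library lay below every lung library. Of all genes, 10.6% and 11.4% were lower without overlap in uninjured and injured meninges against lung. S1pr1 and Cdkn1a were the genes DESeq2 called for uninjured meninges over lung, and S1pr1 and Lgals3 for injured meninges over lung. Lgals3 was not among the 12 genes tested with edgeR, and it was at 0 in all 6 meningeal libraries and at 1.48, 0.515 and 8.46 CPM in lung. Itgb7, an integrin subunit, averaged 94.5 ± 34.5 CPM in injured and 132 ± 27.1 CPM in uninjured meninges (edgeR adjusted p = 0.685).

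**Figure D4:**
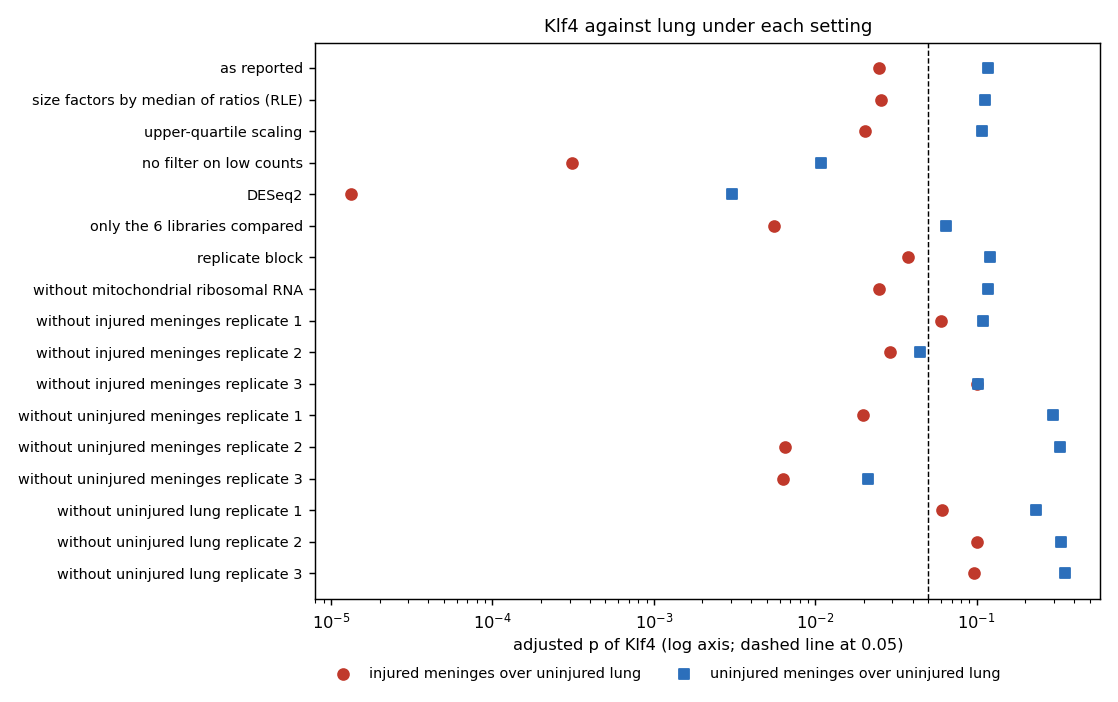
Adjusted p of Klf4 (horizontal log axis, dashed line at 0.05) under each setting (rows), for injured meninges over lung (circles) and uninjured meninges over lung (squares). Of the 16 alternatives, 11 keep the call for injured meninges over lung and 4 give one for uninjured meninges over lung.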

How the data were processed

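The authors deposited 1 table of unnormalized whole-number counts. The submitters' processing notes name mm9 as build and FastQC, STAR and HTSeq as tools. Versions, annotation and strand setting are not given in the sources used here, and overlapping or antisense genes may therefore share reads. Per the labels' protocols, the RNA (PicoPure) was amplified (Ovation) before libraries were made, so reads are not independent molecules. Of 23466 genes, 15969 had a symbol in the table and 7407 were named by Ensembl identifier. No 2 libraries agreed within sampling noise.

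Counts were tested with edgeR 4.0.16 (R 4.3.3): filterByExpr by group (15117 genes), trimmed mean of M values, and 1 robust quasi-likelihood fit of all 9 libraries with a mean per group, with Benjamini-Hochberg adjustment over all genes tested. The SE came from dividing the log2 fold change by the root of F. DESeq2 1.42.0, 2 other scalings, no filter, the 6 libraries compared alone, a replicate block, omission of mitochondrial ribosomal RNA and omission of each library were alternatives. The procedure was also run on simulated counts, and the outcome of that run is not reported here.

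The members and lists were chosen with earlier results of these data known. Named genes are mainly all 7 members, the called genes and the 2 with the smallest p per list and comparison, and the 3 nearest genes of each member. Other genes named, among them Ccl5, Lgals3, Klf2 and single cell type markers, fall outside this rule.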

Additional observations from a re-analysis of the deposited data

How the results depend on the processing

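The direction of Klf4 against lung was negative in all 16 alternatives of both comparisons, and the count of called members stayed at 0 in all 16 for injured over uninjured meninges. For uninjured meninges over lung the count of called members was 1 with no filter and 1 with DESeq2, and 0 to 1 when each library was left out, and for injured meninges over lung it was also 0 to 1 then. Genes called over the whole table numbered 29, 96 and 159 for injured over uninjured meninges, uninjured meninges over lung and injured meninges over lung. They numbered 78, 193 and 296 with no filter and 435, 535 and 1091 with DESeq2, and 12 and 226 in the first 2 comparisons with only the 6 libraries compared. With each library left out they ran from 18 to 27, from 51 to 196 and from 54 to 230. DESeq2 split its calls as 213 higher and 222 lower, 99 and 436, and 312 and 779, against 20 and 9, 6 and 90, and 27 and 132 with edgeR.

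The sign changed only in comparisons in which the member was not called. For injured over uninjured meninges, leaving out each library gave log2 fold changes of -0.081 to 0.489 for Klf13 and -1.60 to 0.45 for Klf4. For uninjured meninges over lung it gave -0.26 to 0.20 for Klf13, -0.172 to 0.083 for Klf3 and -0.21 to 0.18 for Klf10. There Klf13 was also at -0.021 with size factors by median of ratios, -0.007 with no filter, -0.022 with DESeq2 and -0.017 with only the 6 libraries compared, and upper-quartile scaling gave 0.041 for Klf3 and 0.031 for Klf10. For injured meninges over lung it gave -0.32 to 0.40 for Klf7 and -0.073 to 0.421 for Klf13. The cause of these shifts was not tested. Leaving out injured meninges 2 moved the median log2 fold change of all genes by 0.125 for injured over uninjured meninges and by 0.123 for injured meninges over lung.

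No pairing by replicate number was detected, which does not show that the libraries were unpaired. The deviations of same-numbered libraries correlated at -0.039 to 0.1 over 9 pairs. Of 9 libraries, 2 were closest to their own number in both other groups. With the replicate number as a block, 43, 136 and 183 genes were called in the 3 comparisons, Klf4 stayed called for injured meninges over lung (adjusted p = 0.0374), no other member was called, and Klf7 changed sign there (-0.10). The common biological coefficient of variation was 0.906.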

Other observations

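Genes that keep lymphocytes quiescent beside the Kruppel-like factors were also examined as a list. All 15 were tested, and edgeR called none in any of the 3 comparisons, with 3 at an unadjusted p under 0.05 in each. Of all genes, 8.94%, 7.98% and 13.3% were at such a p for injured over uninjured meninges, uninjured meninges over lung and injured meninges over lung. DESeq2 called 1 of the list, Tsc1 for injured meninges over lung, where it called 1091 of 15543 genes. Il7r, the receptor chain for the survival cytokine IL-7, averaged 2086 ± 367 CPM in injured meninges, 1301 ± 224 CPM in uninjured meninges and 1401 ± 109 CPM in lung (SD over 3 libraries). Its log2 fold change was 0.68 ± 0.18 for injured over uninjured meninges (edgeR adjusted p = 0.219). Slfn2, which guards quiescence in T cells, averaged 13.5 ± 9.08 CPM in injured and 37.4 ± 18.4 CPM in uninjured meninges (edgeR adjusted p = 0.531). Tsc1, a brake on mTOR signalling, averaged 77.2 ± 10.6 CPM in injured meninges and 35.6 ± 9.70 CPM in lung (edgeR adjusted p = 0.168). Tob2, an antiproliferative gene, averaged 36.5 ± 3.87 CPM in uninjured meninges and 98.5 ± 30.9 CPM in lung (edgeR adjusted p = 0.353), and Lef1, a transcription factor of the Wnt pathway, averaged 75.7 ± 33.5 CPM in uninjured meninges and 32.0 ± 9.11 CPM in lung (edgeR adjusted p = 0.444).

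The 7 B cell markers summed to 31.7 to 134 CPM in injured meninges, 214 to 946 CPM in uninjured meninges and 222 to 314 CPM in lung. Most of the sum in uninjured meninges was Ighm, the heavy chain of IgM, with 47.1, 59.1 and 28.6 CPM in injured and 667, 184 and 886 CPM in uninjured meninges, called lower in injured meninges (edgeR adjusted p = 0.00346). Cd79a and Ms4a1 had log2 fold changes of 0.70 and 0.74 there and were not called (edgeR adjusted p = 0.927 and 0.945). The 7 T cell markers summed to 57.5 to 166 CPM, 96.4 to 174 CPM and 97.5 to 128 CPM in the same groups.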
